A study of Mus musculus with 6 samples.

Results

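The genes described here are the ubiquitin-conjugating (E2) enzyme genes of satellite cells, which repair mouse skeletal muscle. They were chosen by name: every gene on the array whose name begins with Ube2 followed by a letter. That gave 35 genes, read by 70 probes, among 34797 gene names and unnamed probes in all. For each gene the probe with the highest mean log2 signal over the 6 arrays stood for it. Of the 35 genes, 29 passed the filter on dim probes, which asked for a probe well above background throughout 1 group or the other, beside 19201 of the 34797 features of the whole array. In a few cases the name does not mark an active E2: Ube2v1 and Ube2v2 are variants that lack the catalytic cysteine, and Ube2cbp is described in the files as a protein that binds Ube2c.

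The study compared satellite cells sorted from 3 mice labelled Rpt3 null with those sorted from 3 control mice, all of strain C57BL6. The knockout is specific to satellite cells by the study's design, and Rpt3 is the product of Psmc4, an ATPase of the 19S cap of the proteasome. The labels used here give neither the Cre driver, the genotype of the controls, the age of the mice nor the deleted part of the gene. RNA of each mouse was amplified from 5 ng, labelled with Cy3 and hybridized to 1 Agilent array. A normalized log2 signal below is the log2 processed signal of a probe minus the 75th percentile of its array, and a log2 difference is knockout minus control.

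Ubiquitin reaches a protein through a relay of enzymes. An E1 activates it, an E2 carries it as a thioester, and an E3 ligase brings the loaded E2 to the substrate. The E2 largely decides how the next ubiquitin is linked, and so whether the tag leads to the proteasome, to signalling or to DNA repair. A few enzymes of the same fold carry relatives of ubiquitin instead, such as SUMO, NEDD8 or ISG15. Muscle uses this relay for protein turnover, and dividing cells use it to pass through mitosis.

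The sequences shown belong to the gene with the largest difference of the family, Ube2c, the E2 that starts ubiquitin chains for the anaphase-promoting complex, the mitotic ligase. Its 2 probes are shown because they measured different stretches of the transcript, and both are printed in lower case. Both lie on the plus strand of chromosome 2 in build mm9, the brighter one at chr2:164598016-164598075 and the other at chr2:164597496-164597555, with starts 520 bases apart.
Ube2c, brighter probe: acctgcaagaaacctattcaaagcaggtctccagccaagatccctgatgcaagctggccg
Ube2c, second probe: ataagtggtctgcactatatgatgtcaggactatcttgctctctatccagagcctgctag
The promoters of Ube2c and of Ube2s, the E2 that extends the chains that Ube2c starts, are shown because both genes serve the same ligase and their values differed. They are from RefSeq, build GRCm38.p6, and reach from upstream of the start of the gene to just past it, with Ube2c at chr2:164769679-164769978 on the plus strand and Ube2s at chr7:4812291-4812590 on the minus strand. Capitals mark CCAAT, the box bound by the factor NF-Y, and TTTGAA, a form of the cell cycle homology region of mitotic genes, each searched on both strands, so ATTGG and TTCAAA count as well.
Ube2c promoter: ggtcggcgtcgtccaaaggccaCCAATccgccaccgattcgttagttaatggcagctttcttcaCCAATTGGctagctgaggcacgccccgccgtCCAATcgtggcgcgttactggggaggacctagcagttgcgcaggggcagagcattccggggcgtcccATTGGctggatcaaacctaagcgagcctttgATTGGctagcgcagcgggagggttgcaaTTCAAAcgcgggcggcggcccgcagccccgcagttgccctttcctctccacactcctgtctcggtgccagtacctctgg
Ube2s promoter: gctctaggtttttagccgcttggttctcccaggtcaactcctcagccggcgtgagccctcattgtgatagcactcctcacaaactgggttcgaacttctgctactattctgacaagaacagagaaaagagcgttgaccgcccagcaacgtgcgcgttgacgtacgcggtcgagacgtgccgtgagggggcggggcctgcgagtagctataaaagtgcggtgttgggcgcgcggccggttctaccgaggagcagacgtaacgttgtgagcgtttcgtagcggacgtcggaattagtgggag

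The Ube2c window held CCAAT at 6 places, 2 of which overlap, and TTTGAA at 1 place, at positions -29 to -24 from the start. The Ube2s window held neither. At least 6 CCAAT boxes were found in 26 of 32851 promoter windows of the whole table, or 0.0791%. Promoter windows were found for 27 of the member names, 38 windows in all. Of these 38, 7 held CCAAT (18.4%, against 37.4% of all windows) and 3 held TTTGAA (7.89%, against 17.9%). The element TGACNNNGC, a core of the antioxidant response element to which the stress factors NRF1 and NRF2 bind, was in 6 of the 38 windows (15.8%, against 12.4% of all windows). CCAAT and TTTGAA occurred together in 2 of the 38 windows (5.26%, against 6.95% of all windows), that of Ube2c and a window of Ube2f. The log2 difference of Ube2f was 0.00. A match describes letters only, and binding was not measured. The relation of these motifs to the signal was not tested.

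The arrays were of one slide, with knockout 1 and 2 in slide row 1 and knockout 3 and the 3 controls in slide row 2. The share of spots well above background was 58.4%, 52.0% and 44.3% in knockout 1, 2 and 3, and lay between 53.4% and 53.9% in the controls. Of 12 satellite cell markers all 12 were tested, and 6 had higher and 6 lower means in knockout cells. At an unadjusted p under 0.05 3 were lower, Calcr, Fgfr4 and Myf5, where 4.21% of all features were. Of these 3, Myf5 passed the filter on dim probes through the control arrays only. Pax7 was well above background on 2 of 3 knockout and 3 of 3 control arrays, and Myf5 on 0 of 3 knockout and 3 of 3 control arrays. Pax7 read -1.10, -1.09 and -1.61 on knockout arrays, against -2.12, -1.31 and -0.88 on control arrays, so the groups overlapped. The 9 markers well above background on all 6 arrays had a median log2 difference of 0.01, with 5 higher and 4 lower means. Markers of other cells were present, with a mean normalized log2 signal of 4.22 to 4.76 on knockout and 4.39 to 4.90 on control arrays for 8 fibro-adipogenic markers, and of 0.89 to 2.28 and 0.59 to 2.55 for 8 endothelial ones. Of 11 neutrophil markers 5 were tested, with 0 at an adjusted p under 0.05. Their mean was 2.66, 2.93 and 1.1 on knockout arrays, against 1.23 to 1.40 on control arrays. This mean includes S100a8 and Camp, which passed the filter on dim probes through the control arrays only, and Elane, through the knockout arrays only. S100a8 alone read 1.77, 2.64 and -4.07 on knockout arrays, against -2.46, -1.88 and -2.09 on control arrays. The 2 markers well above background on all 6 arrays had a median log2 difference of 0.31, with 2 higher and 0 lower means. The part of these cells in the E2 values was not tested. By limma 0 of 19201 features passed an adjusted p of 0.05 (0%). Without adjustment, 544 had higher and 808 lower signal with a p under 0.05. The targeted gene, Psmc4, had a normalized log2 signal of 2.05, 2.07 and 1.54 in knockout 1, 2 and 3, against 2.93, 2.61 and 2.87 in control 1, 2 and 3. All knockout arrays lay below all controls. Whether the probe lies in the deleted part is not given in the sources used here. The log2 difference was -0.92 (95% interval -1.47 to -0.37, limma adjusted p = 0.421), which left 52.9% of the control signal.

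Apart from Ube2c, the tested E2 genes stayed close to their control signal in the knockout cells, as did the typical feature of the array. The median absolute log2 difference was 0.19 over the tested members, against 0.20 over all tested features. Of the 29 tested genes, 18 had higher and 11 lower means in knockout cells, beside 10804 higher and 8397 lower of all 19201 tested features. Of the 29 genes, 0 passed in either direction over all features, where the background was 0%. Their median log2 difference was 0.07, with quartiles of -0.06 and 0.20, beside a median of 0.04 over all tested features with quartiles of -0.19 and 0.21. At an unadjusted p under 0.05 0 members were higher, where 2.83% of all features were, and 1 was lower, where 4.21% of all features were. The arrays of the groups did not overlap for 2 members that were lower, Ube2c and Ube2j1, against 5.61% of all features, and for 0 that were higher, against 5.08%. For 29 genes, these counts of lower members are near the shares over all features.

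The intervals are those of the main fit, which leaves slide row out of account, and bound a difference only under it. For 28 of the 29 genes the 95% interval of the log2 difference lay inside -1 to 1, which is less than a 2-fold change in either direction. The exception was Ube2c. Over all tested features 62.9% had such an interval. All 29 tested members were well above background on all 6 arrays, against 16711 of the 19201 features. The shares are therefore not of equally bright probes. Outside Ube2c, the largest differences were 0.39 for Ube2d2 and -0.37 for Ube2j1. For comparison, 36 tested genes with names of proteasome subunits were used, chosen by name only (Psma, Psmb, Psmc or Psmd and a digit), without Psmc4. This list was taken up with earlier results of these arrays known. Its median log2 difference was 0.97, with 35 of 36 above 0. None of these genes had an interval inside -1 to 1 (0 of 36). The difference between these lists was not tested.

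**Figure D1:**
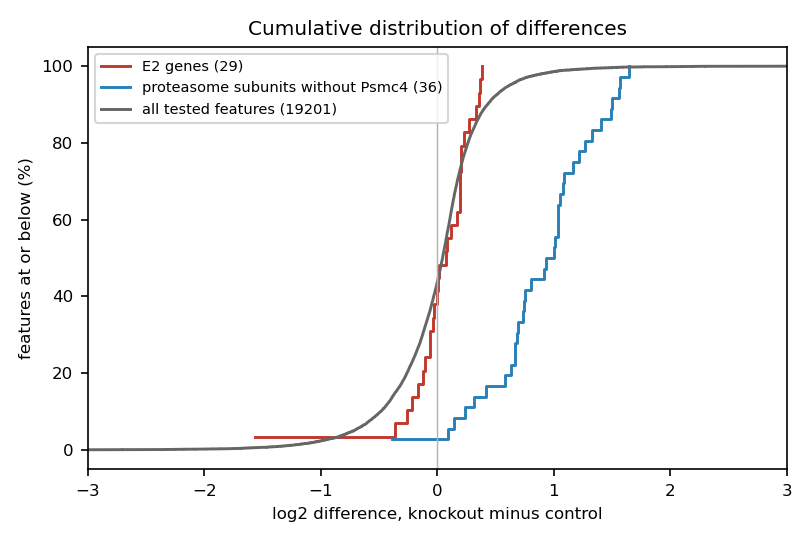
Cumulative share (%) of features at or below each log2 difference, knockout minus control. Curves are for the 29 tested E2 genes, 36 genes with proteasome subunit names (without Psmc4) and all 19201 tested features. The E2 curve rises steeply near 0 with a single step far to the left for Ube2c, and the proteasome curve lies to the right, around its median of 0.97.

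**Figure D2:**
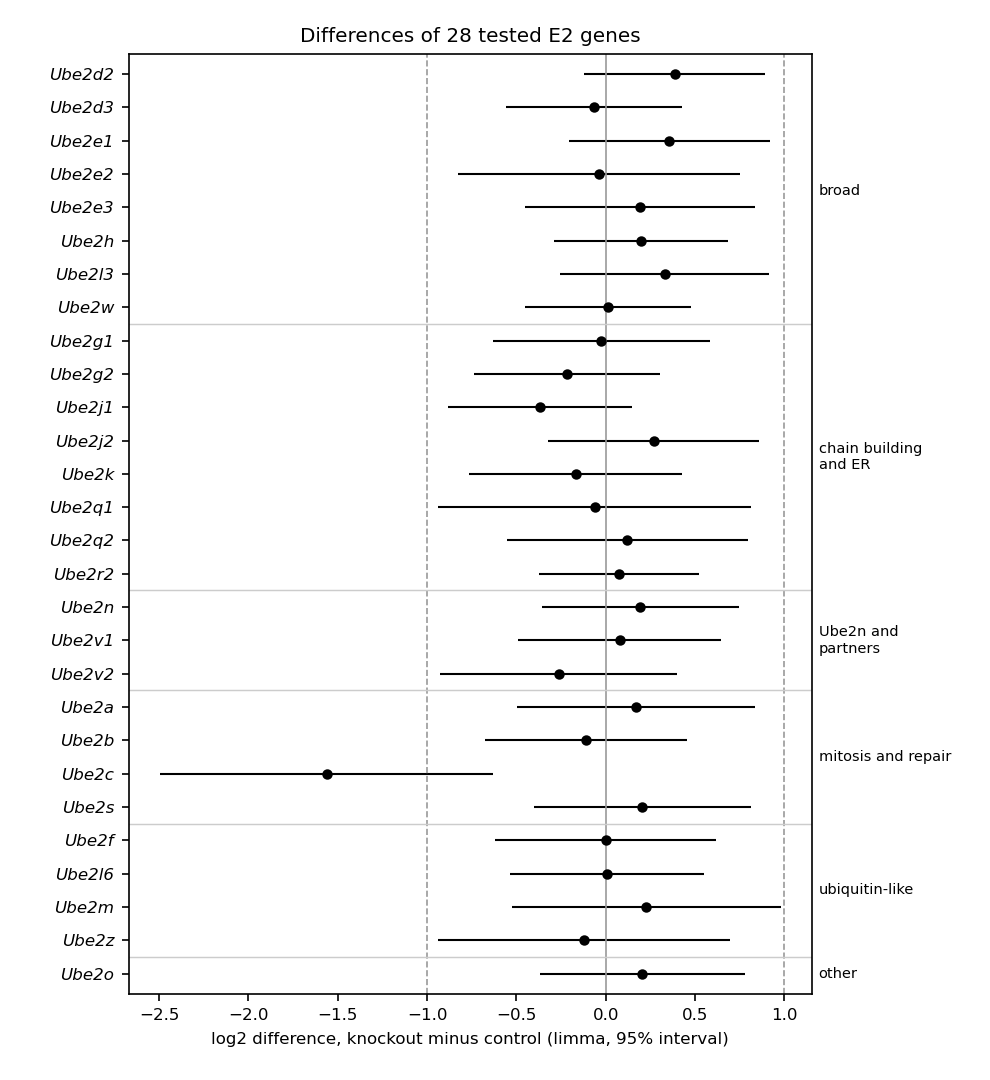
Log2 difference, knockout minus control, of 28 tested E2 genes, each with its 95% interval from limma (3 arrays per group), grouped by role. Dashed lines mark -1 and 1, and 27 of the 28 intervals lie between them, with Ube2c at -1.56 crossing the lower line.

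Both Ube2c and Ube2s serve the anaphase-promoting complex. Ube2c was lower in each knockout array than in any control array. It read -0.59, -1.86 and -0.57 (normalized log2 signal) on knockout arrays 1, 2 and 3, against 0.40, 0.22 and 1.05 in control 1, 2 and 3. The mean was -1.01 ± 0.74 in knockout and 0.55 ± 0.44 in control cells (SD, n = 3 each), and all 6 arrays were well above background. The log2 difference was -1.56 (SE 0.40, 95% interval -2.50 to -0.63), so that 33.9% of the control signal was left. It did not pass over all features (limma, adjusted p = 0.421). With 3 arrays per group an exact permutation test cannot give less than 0.1, which was its value here. By unadjusted p it stood at place 225 of the 19201 tested features. The size depended on the background correction: with normexp the log2 difference was -0.79 (limma, adjusted p = 0.419).

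The second Ube2c probe, printed above, read -0.76, -3.02 and -2.13 in knockout 1, 2 and 3, against 0.36, -0.12 and 1.40 in control 1, 2 and 3, and again no knockout array reached a control. It was well above background on 1 of 3 knockout arrays and on 3 of 3 control arrays. It therefore passed the filter through the control arrays only, and its fitted log2 difference of -2.52 (SE 0.60, limma adjusted p = 0.361 with every probe as a feature) rests on dim knockout values and is not separate support for the size or the test of the brighter probe.

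Ube2s, the chain-extending partner, had no such difference. On knockout arrays 1, 2 and 3 it read 4.48, 5.31 and 4.92 (normalized log2 signal), against 4.68, 4.85 and 4.57 in control 1, 2 and 3, so knockout 1 was the lowest and knockout 2 and 3 the highest of the 6. The log2 difference was 0.21 (95% interval -0.40 to 0.81, limma adjusted p = 0.981). Within each array, Ube2c minus Ube2s was -5.08, -7.17 and -5.49 in knockout 1, 2 and 3, against -4.28, -4.64 and -3.52 in control 1, 2 and 3. This contrast does not depend on the scaling of the arrays, and it differed by -1.77 between the groups with no overlap (exact permutation p = 0.1, the smallest possible). It was chosen after the values were seen.

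**Figure D3:**
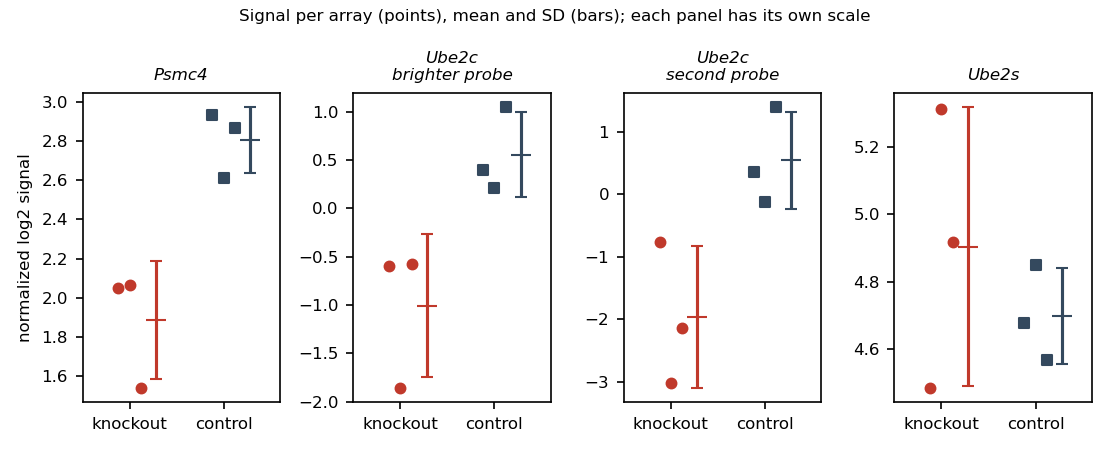
Normalized log2 signal of Psmc4, both Ube2c probes and Ube2s on each of the 3 knockout and 3 control arrays (points), with mean and SD (bars), each panel on its own scale. Knockout points lie below all control points for Psmc4 and for both Ube2c probes, and on both sides of the control points for Ube2s, from 4.48 to 5.31.

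Genes of dividing cells were set beside Ube2c. Of 20 proliferation markers looked at, 14 were tested, and 10 of these had lower and 4 higher means in knockout cells, with 0 past the threshold over all features. At an unadjusted p under 0.05 8 were lower, where 4.21% of all features were. Of these 8, 7 passed the filter on dim probes through the control arrays only, where they are high, so their count supports nothing by itself. The median log2 difference of the 14, -1.45, carries the same limit. The 6 markers well above background on all 6 arrays had a median of 0.08, with 2 lower and 4 higher means. The mean normalized log2 signal of the 14 lay between -1.77 and -1.26 on the knockout arrays, against -0.51 to -0.27 on the control arrays. These means include the markers that passed through the control arrays only, so their gap carries the same limit. The 3 with the smallest p were Nusap1, Birc5 and Tpx2, all of the mitotic apparatus. Birc5 differed by -1.65 and was well above background on all 6 arrays. Tpx2 was well above background on 1 of 3 knockout arrays and 3 of 3 control arrays, so no exact difference is given. Nusap1 was not well above background on any knockout array. It was at least 4.0-fold lower there, a bound from the dimmest signal above background on each array. It passed the filter through the control arrays only, and the bound was not tested. In such bulk samples fewer dividing cells and less RNA per cell cannot be told apart. The 4 markers with higher means, named after their values were seen, were Pcna (0.40), Plk1 (0.19), Cdk1 (0.14) and Ccnb1 (0.02). The part of dividing cells in the Ube2c result was not tested.

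The DNA repair E2 genes that could be measured were close to control. Ube2a and Ube2b encode the mammalian RAD6 enzymes, which tag histone H2B and the sliding clamp PCNA. Ube2a read 1.34, 0.41 and 0.75 on the knockout arrays, against 0.65, 0.90 and 0.45 on the control arrays, and differed by 0.17 (95% interval -0.50 to 0.83). Ube2b had 4.77, 4.65 and 4.43 in knockout arrays, against 4.35, 4.91 and 4.93 in control arrays, and differed by -0.11 (95% interval -0.67 to 0.46). In both genes the groups overlapped. Ube2t, the E2 of the Fanconi anaemia pathway and another gene of dividing cells, has 1 probe on the array. It read -5.06, -4.56 and -3.04 on knockout arrays, against -4.58, -4.62 and -4.54 on control arrays, and was well above background on none of the 6.

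The E2 enzymes grouped here as broad mostly had higher means without passing. Several of them place the first ubiquitin with many E3 ligases. Ube2h and Ube2w were also counted in this group and are described below for other roles. Of 8 tested genes, 6 had higher and 2 lower means, with a median log2 difference of 0.19 and 0 past the threshold. Among all 19201 tested features, 10804 had higher means. Ube2d2, now named Ube2d2a, had 2.61, 2.60 and 2.24 in knockout 1, 2 and 3, against 2.27, 1.99 and 2.02 in control 1, 2 and 3. Knockout 3 lay just below control 1, and the other knockout arrays were above every control. It differed by 0.39 on the log2 scale (95% interval -0.12 to 0.89, limma adjusted p = 0.858). Its other probes differed by 0.69 and 0.50. The one at 0.69 read 1.83, 2.13 and 1.92 in knockout arrays, against 0.92, 1.56 and 1.32 in control arrays, with no overlap (limma adjusted p = 0.584 with every probe as a feature). Ube2d1, Ube2d2 and Ube2d3 encode nearly the same protein, and cross-hybridization between them was not tested.

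Ube2d3 differed by -0.06, and its probe lay between 3.76 and 4.15 on the knockout and between 4.03 and 4.12 on the control arrays. Ube2d1 was well above background on 2 arrays of each group and was not tested. It read -1.30, -1.76 and -3.94 in knockout arrays, against -2.64, -1.98 and -2.16 in control arrays. Knockout 3 was the lowest of the 6 there.

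Ube2e1, of a group of E2 enzymes with an extended amino terminus, had 0.16, 0.39 and -0.15 in knockout arrays, against -0.12, -0.05 and -0.50 in control arrays. Its groups overlapped through knockout 3, and the log2 difference was 0.36 (95% interval -0.20 to 0.92, limma adjusted p = 0.920). Ube2e3 differed by 0.19 and Ube2e2 by -0.04. Ube2l3, the partner of HECT and RING-between-RING ligases such as parkin, had 4.11, 3.90 and 3.37 in knockout arrays, against 3.52, 3.32 and 3.54 in control arrays. Knockout 1 and 2 lay above every control and knockout 3 lay within the controls. Its log2 difference was 0.33 (95% interval -0.25 to 0.92, limma adjusted p = 0.946), and it was -0.09 with knockout 3 alone against the controls of its slide row. Ube2w, which tags the amino terminus of substrates, differed by 0.01, with an interval from -0.45 to 0.48.

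Ube2h and Ube2o are E2 genes known for their roles in maturing red blood cells, and the hemoglobin gene Hba-a1 read higher on every knockout array than on any control array. Ube2h had 3.60, 3.47 and 3.78 in knockout arrays, against 3.39, 3.28 and 3.58 in control arrays, with a log2 difference of 0.20 (95% interval -0.29 to 0.68). Ube2o had 1.23, 1.78 and 1.40 in knockout arrays, against 0.99, 1.32 and 1.50 in control arrays, with a log2 difference of 0.20 (95% interval -0.37 to 0.78). The groups overlapped for both, and neither passed (limma, adjusted p = 0.981 for each). Of 11 red blood cell markers looked at, 4 were tested. Their mean normalized log2 signal was 1.11 to 1.54 on knockout arrays, against -0.37 to 0.71 on control arrays, with 0 past the threshold. This mean includes Hbb-b1, which passed the filter through the knockout arrays only, where it is high. The 3 markers well above background on all 6 arrays had a median log2 difference of -0.0046, with 1 higher and 2 lower means. Hba-a1 had a log2 difference of 1.88, while Tfrc (-0.07) and Slc4a1 (-0.0046) were near 0. Hbb-b1 was well above background on 3 of 3 knockout and 1 of 3 control arrays, so no exact difference is given. The erythroid genes Klf1, Ahsp and Epb4.2 were well above background on none of the 6 arrays, and Alas2 on 1 knockout array. The part of red blood cell RNA in these values was not tested.

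The E2 enzymes that build degradation chains, several of them at the membrane of the endoplasmic reticulum, had means on both sides of 0. Of 8 tested genes, 3 had higher and 5 lower means, with a median log2 difference of -0.04 and 0 past the threshold. Ube2j1, a membrane-anchored E2 of the pathway that clears misfolded proteins from the endoplasmic reticulum, had 1.46, 1.05 and 1.35 in knockout 1, 2 and 3, against 1.49, 1.60 and 1.86 in control 1, 2 and 3. Every knockout array lay below every control, although knockout 1 and control 1 nearly touched. Its log2 difference was -0.37 (95% interval -0.88 to 0.15, limma adjusted p = 0.880). Its other probes differed by -0.46 and -0.33, so all 3 had lower means.

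Its relative Ube2j2 had a higher mean, with 3.43, 3.44 and 3.11 in knockout arrays, against 3.43, 3.06 and 2.69 in control arrays. Its log2 difference was 0.27 (95% interval -0.32 to 0.86), and its 3 probes lay between 0.22 and 0.27. Ube2g2, the E2 that works with the membrane ligase gp78, had 1.0, 1.09 and 0.79 in knockout arrays, against 1.45, 1.11 and 0.97 in control arrays, with a log2 difference of -0.22 (95% interval -0.74 to 0.31). The groups overlapped for Ube2j2 and Ube2g2. The others were near 0: Ube2k, which extends chains, at -0.17, Ube2g1 at -0.02, Ube2r2, an E2 of cullin ligases, at 0.07, Ube2q1 at -0.06 and Ube2q2 at 0.12. Ube2r2 lay between 1.97 and 2.16 on knockout and between 1.97 and 2.02 on control arrays. Ube2ql1, of the same group, was well above background on 0 of 6 arrays.

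Ube2n, with the inactive partner Ube2v1 or Ube2v2, makes chains used in signalling and DNA repair rather than in degradation. Ube2n had 1.92, 1.87 and 1.50 in knockout arrays, against 1.77, 1.27 and 1.67 in control arrays, with a log2 difference of 0.19 (95% interval -0.36 to 0.75). Its second probe read -0.59, -0.07 and -1.11 in knockout arrays, against -0.02, 0.02 and -0.14 in control arrays, and differed by -0.54. The probes had differences of opposite sign, and, as found after the values were seen, the gap between them was wider in every knockout array (2.51, 1.94 and 2.61) than in any control array (1.79, 1.25 and 1.81). Neither probe passed. Ube2v1 differed by 0.08 (95% interval -0.49 to 0.65). Ube2v2 had 1.80, 1.82 and 1.16 in knockout arrays, against 1.44, 2.02 and 2.11 in control arrays, and differed by -0.26 (95% interval -0.93 to 0.40).

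The E2 enzymes of the relatives of ubiquitin were also close to control. Ube2m, an E2 of NEDD8, the modifier that switches on cullin ligases, had 2.50, 2.27 and 1.60 in knockout arrays, against 1.59, 1.70 and 2.39 in control arrays. It differed by 0.23 (95% interval -0.52 to 0.98). Ube2f, the other E2 of NEDD8, differed by 0.00, with an interval from -0.62 to 0.62.

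Ube2l6, the E2 of the interferon-induced modifier ISG15, had 3.32, 2.95 and 3.53 in knockout arrays, against 3.17, 3.44 and 3.16 in control arrays. The groups overlapped, and the log2 difference was 0.01 (95% interval -0.53 to 0.55). Interferon response markers also averaged close together, with 9 of 14 tested and a median log2 difference of 0.07. Their mean signal lay between 0.50 and 0.91 on knockout and between 0.27 and 1.41 on control arrays. Ube2z, which works with the E1 Uba6 and the modifier FAT10, differed by -0.12 (95% interval -0.94 to 0.70). The gene of FAT10, Ubd, was well above background on 0 of 6 arrays.

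The remaining names gave no value that could be tested. Ube2u was well above background on 1 array of each group, and Ube2cbp and Ube2dnl on 0 of 6. Together with Ube2d1, Ube2ql1 and Ube2t they are the 6 members left out of the counts above.

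**Figure D4:**
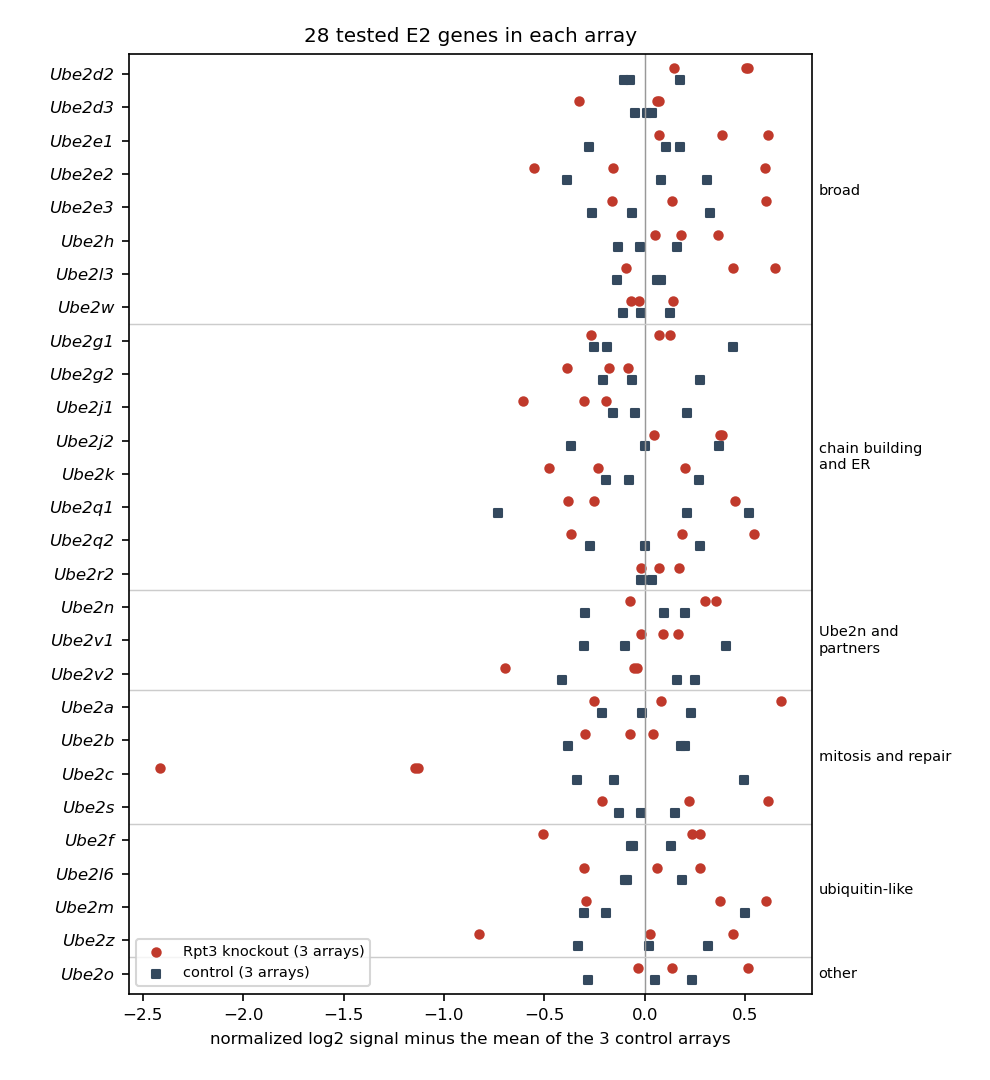
Normalized log2 signal of 28 tested E2 genes on the 3 knockout (circles) and 3 control arrays (squares), minus the mean of the 3 control arrays of that gene, grouped by role. Only Ube2c has all knockout arrays more than 1 log2 unit below its control mean, and in many rows a single knockout array lies left of the others.

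The arrays differed among themselves in a way that touched many members. Knockout 3 had the lowest value of the 6 arrays for 9 of the 29 genes and knockout 1 the highest for 10. Relative to each gene's mean, the median member was 0.12, 0.09 and -0.22 on the knockout arrays, against -0.06, -0.00 and -0.06 on the control arrays. Without knockout 3 the median log2 difference was 0.21 over 30 tested members, of which 23 were higher and 7 lower. With knockout 3 alone against the 3 controls of slide row 2 it was -0.13, with 11 higher and 19 lower. That comparison drops knockout 1 and 2, so the array and the slide row change together and cannot be told apart. Ube2c was lower in both, at -1.78 and -1.13.

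Several probes per gene gave a check within the same arrays. Of the 70 member probes 60 were tested, and 18 genes had more than 1 tested probe. In 7 of these all probes had higher means in knockout cells, in 2 all had lower means, and in 9 the signs were mixed. The 2 with all probes lower were Ube2c and Ube2j1, and among those with all higher were Ube2d2, Ube2e1, Ube2j2 and Ube2l3. The median range between probes of a gene was 0.26 on the log2 scale, close to the median standard error of 0.25 of a member's difference. Ube2n and Ube2w had ranges of 0.73 and 0.70 with mixed signs. Probes of a gene share the RNA of the same mice and are not replicates.

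**Figure D5:**
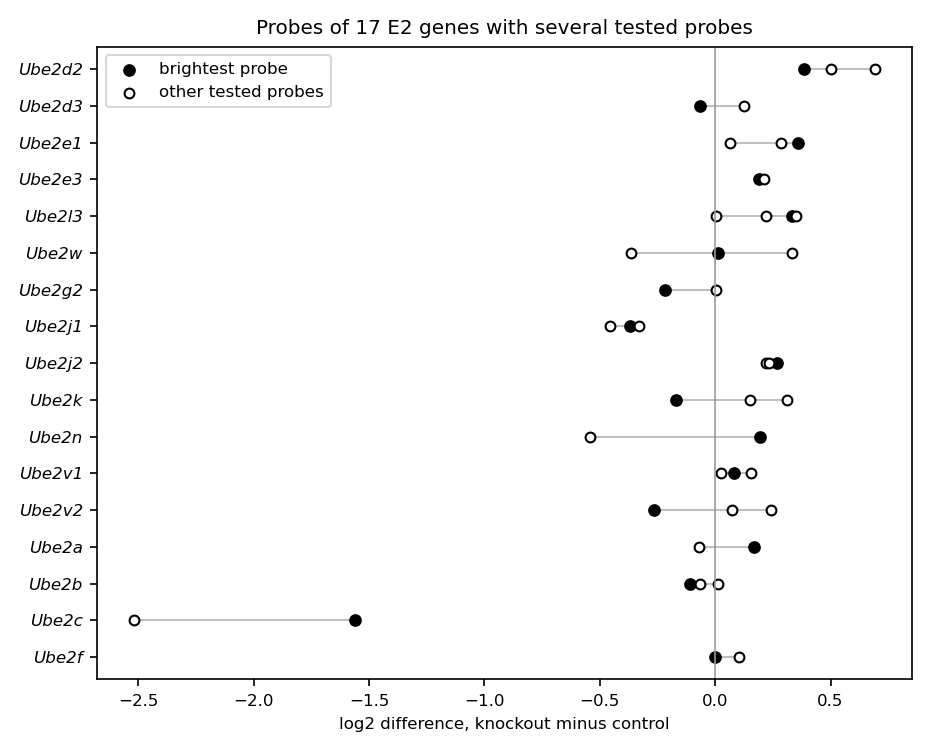
Log2 difference, knockout minus control, of every tested probe of 17 E2 genes that have more than 1, with the brightest probe filled. Both Ube2c probes lie at or below -1.56, the 3 Ube2j1 probes lie between -0.46 and -0.33, and the Ube2n probes lie on both sides of 0.

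The enzymes before the E2 step and the modifiers themselves were set beside the family. Of 7 tested E1 genes 2 had higher and 5 lower means, with a median log2 difference of -0.16 and 0 past the threshold. Atg7, the E1 of autophagy, differed by -0.54, Uba6 by -0.48 and Sae1, a subunit of the SUMO E1, by -0.35. Of 8 genes with an E2 fold but another name, 4 had higher and 4 lower means, with 0 past the threshold. The 3 with the smallest p were Uevld, an inactive variant, at 0.89, Cdc34, an E2 of cullin ligases, at 0.55, and Atg10, an E2-like enzyme of autophagy, at -0.59. For 2 of the 8, Uevld and Cdc34, every knockout array lay above every control, as for 5.08% of all features (limma adjusted p = 0.620 and 0.727). Of 9 tested ubiquitin-like modifiers 7 had higher and 2 lower means, with a median of 0.10 and 0 past the threshold. The 3 with the smallest p were Urm1 (0.56), Sumo3 (0.27) and Isg15 (0.60).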

How the data were processed

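Scanner files hold linear intensity. The authors corrected that signal for background and trend with Agilent Feature Extraction 10.7.1.1, per the file headers, while the submitters' processing notes name 9.5.1.1. The deposited value table, quantile normalized intensity on a linear scale, was an alternative. Control spots and outlier flags were left out, spots of a probe were averaged, and log2 signal was scaled to the 75th percentile of each array. No spot was saturated (0 on each array). Groups were tested with limma 3.58.1 (lmFit, eBayes) in R 4.3.3 over 19201 features with Benjamini-Hochberg adjustment at 0.05, 2-sided. Gene names are those of the files, with positions in mm9. The accessions of 33 of 35 members matched a table of assembly GRCm38.p6. The scripts were tested on simulated data. Values in every array are given for members with an unadjusted p under 0.05, 4 members in each direction by smallest p and some chosen by name, and for others where the text turns on them. The members and lists were chosen with earlier results of these data known. The precision is limited by the number of arrays, 3 per group. Of the tested members, 1 enters the counts and medians but is not reported here.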

Additional observations from a re-analysis of the deposited data

How the results depend on the processing

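Over 21 alternatives, 0 E2 genes passed the threshold in any of them. Over all features 1 lower call appeared with quantile normalization and with the deposited table, 2 lower with median scaling, 1 higher with an intensity trend and robust moderation, and 3 higher and 6 lower with array weights. The median member difference was -0.16 with slide row as a block and -0.13 in slide row 2 alone, both of which rest on knockout 3 as the lone knockout array, whose spread is taken to be that of the others; over arrays left out in turn it lay between 0.02 and 0.21. Ube2c kept its direction in 20 alternatives, between -2.04 and -0.79 (limma, adjusted p from 0.159 to 0.738), and between -1.78 and -1.14 with single arrays left out. Psmc4 lay between -1.27 and -0.75 (limma, adjusted p from 0.182 to 0.805). Signs were followed gene by gene for 14 members only, and turned for 5 of these. Among all 29 tested members, 10 had higher and 19 lower means with slide row as a block, against 18 and 11 in the main fit. Ube2l6 was -0.041 with normexp, -0.0032 with quantile normalization, -0.0041 with a percentile over detected probes, -0.0030 with the deposited table and -0.17 with array weights, and lay between -0.12 and 0.17 with single arrays left out. With the mean of probes Ube2v2 was 0.017 and Ube2n -0.17. With slide row as a block, and in slide row 2 alone, Ube2l3 was -0.095, Ube2n -0.071 and Ube2m -0.29. The cause was not tested. The replicate numbers gave no sign of a pairing: same-numbered arrays correlated at 0.07, -0.02 and 0.09 in their deviations. With 3 arrays per group these values cannot exclude a pairing. With the replicate block 0 features passed, and Ube2c had a limma adjusted p of 0.314. A scan date block was not run because all arrays share 1 scan. The fit with every probe as a feature was chosen after seeing the data. Dim probes limit what can be said of the 6 members left out.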
